A study of Mus musculus with 20 samples.

Results

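The genes described here code for the provisional, or injury, matrix and for the machinery that makes and reads hyaluronan. They are the tenascin gene Tnc, the hyaluronan receptor gene Cd44, the hyaluronan synthase genes Has1 and Has2, the hyaluronidase gene Hyal2, the hyaluronan cross-linking gene Tnfaip6, the proteoglycan gene Vcan, the fibronectin gene Fn1, the thrombospondin gene Thbs1 and the osteopontin gene Spp1. A gene was followed through the probe set that the array annotation gives to that symbol alone, and by the highest mean over the 20 arrays where there were several. Each of 9 of the 10 genes had 1 such probe set, so no choice by mean was needed, and Spp1 is not analysed here. The 9 genes are among 22180 genes with such a probe set and among 14178 genes kept by the filter on dim probe sets. The genes were chosen by name with the DNFB differences of Tnc and Cd44 already known, so for those genes the DNFB differences are given as a description, with no p-value.

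In injured or inflamed skin, cells lay down a temporary matrix of fibronectin, tenascin C, versican and thrombospondin over which other cells move. Hyaluronan, a long sugar polymer extruded at the cell surface by the Has enzymes, swells this matrix, and on inflamed vessels hyaluronan held by CD44 can tether rolling leukocytes. TSG-6, the product of Tnfaip6, moves protein chains from inter-alpha-inhibitor onto hyaluronan and so links its strands, while hyaluronidases cut it into fragments.

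RNA of endothelial cells sorted from digested mouse ears as CD31+CD45-Ter119- was measured on 20 Affymetrix arrays in 4 groups. The NICD DNFB (n = 4) and NICD vehicle (n = 4) groups carried a constitutively active Notch1 intracellular domain (NICD) switched on by Cre in endothelium, and the control DNFB (n = 6) and control vehicle (n = 6) groups came from mice labelled only as control. The labels name a Pdgfb-CreERT2; R26-NICD genotype and, in the growth protocol, a CDH5-iCre driver with RosaNICD/NICD, so the driver is not settled. All mice had 5 tamoxifen injections. DNFB (dinitrofluorobenzene, a skin-sensitising hapten) was painted on the skin beforehand to sensitise, with a challenge of the ear pinna at day 5 and harvest 24 hours after it. The title of NICD vehicle replicate 4 says vehicle and its description says DNFB. It was counted as vehicle here, and its Tnc and Cd44 values of 4.33 and 5.37 lay inside the range of the other vehicle arrays. No age is given, and nothing states whether replicates came from separate mice, so p-values measure the spread between these samples.

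Genotype could not be told apart from other differences between the arrays. Xist, which is expressed in females, read 8.47 to 9.07 on the 8 NICD arrays and 2.27 to 3.16 on the 12 control arrays, and the Y-linked Eif2s3y read 2.11 to 2.79 on NICD arrays and 6.08 to 7.12 on control arrays. The median over all probe sets was 3.52 to 3.62 on NICD arrays and 3.87 to 3.98 on control arrays. Each NICD-minus-control difference is therefore given both as deposited and with each array centred on its own median, which moves the median of all genes by 0.37 in DNFB ears and 0.33 in vehicle ears. Notch1 read 9.47 to 9.87 on NICD arrays and 9.52 to 10.02 on control arrays. Its NICD-minus-control difference in DNFB ears was under 0.01 as deposited (limma, adjusted p 1) and 0.37 with centred arrays (adjusted p 0.00688), and in vehicle ears -0.10 (adjusted p 0.445) and 0.22 centred (adjusted p 0.111). The endothelial markers Cdh5, Pecam1 and Kdr averaged 12.01, 11.48 and 10.77 in NICD DNFB ears and 11.93, 11.51 and 10.17 in control DNFB ears. Of 15 pan-endothelial markers, 4 were higher and 0 lower in NICD DNFB ears than in control DNFB ears as deposited. With centred arrays 12 were higher and 0 lower (median difference 0.21 as deposited, 0.58 centred). Over all probe sets 5.45% were higher and 35.1% lower as deposited, and 20.7% and 8.12% centred. Values are on the log2 scale of RMA, the robust multi-array average, and a probe set's level is not compared with that of another.

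The promoter sequences next to the transcription start are shown because several of the genes rose together with DNFB, and because Hyal2, shown last, did not pass the test in either genotype. RefSeq windows (build GRCm38.p6) were held for 7 of the 10 genes, and for Tnc, which has several starts, the most upstream was taken. The windows span 250 bases up to the start, 5′ to 3′ on the gene's strand, for Tnc at chr4:64047016-64047265 (minus strand), Cd44 at chr2:102901666-102901915 (minus strand), Has1 at chr17:17855189-17855438 (minus strand), Tnfaip6 at chr2:52037863-52038112 (plus strand) and Hyal2 at chr9:107568913-107569162 (plus strand). Capitals mark matches to TGANTCA (AP-1), TGGGAA (the core letters bound by RBPJ, the DNA-binding partner of Notch) or the NF-kB motif, searched on both strands.
Tnc: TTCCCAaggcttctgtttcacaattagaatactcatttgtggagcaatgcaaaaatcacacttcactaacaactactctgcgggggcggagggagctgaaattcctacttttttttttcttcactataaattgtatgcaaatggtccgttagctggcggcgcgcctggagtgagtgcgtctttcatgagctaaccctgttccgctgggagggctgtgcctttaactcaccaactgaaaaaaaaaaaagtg
Cd44: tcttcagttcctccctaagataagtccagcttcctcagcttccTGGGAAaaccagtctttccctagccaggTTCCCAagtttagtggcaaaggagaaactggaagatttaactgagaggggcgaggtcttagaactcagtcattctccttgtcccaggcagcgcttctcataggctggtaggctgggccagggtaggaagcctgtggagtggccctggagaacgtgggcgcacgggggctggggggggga
Has1: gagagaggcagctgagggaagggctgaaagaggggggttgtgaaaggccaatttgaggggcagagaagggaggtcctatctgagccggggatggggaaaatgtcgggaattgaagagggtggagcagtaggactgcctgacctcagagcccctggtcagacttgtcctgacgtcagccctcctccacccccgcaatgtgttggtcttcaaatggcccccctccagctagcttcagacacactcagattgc
Tnfaip6: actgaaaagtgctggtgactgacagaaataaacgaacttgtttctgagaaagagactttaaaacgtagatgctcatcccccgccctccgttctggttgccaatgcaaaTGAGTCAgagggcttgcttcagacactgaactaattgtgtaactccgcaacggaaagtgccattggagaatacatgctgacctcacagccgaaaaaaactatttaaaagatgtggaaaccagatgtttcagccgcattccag
Hyal2: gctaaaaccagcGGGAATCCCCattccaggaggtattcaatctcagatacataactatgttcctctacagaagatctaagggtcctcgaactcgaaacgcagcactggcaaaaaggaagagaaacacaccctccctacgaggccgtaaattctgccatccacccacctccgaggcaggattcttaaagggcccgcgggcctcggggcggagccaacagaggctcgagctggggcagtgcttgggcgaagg
The AP-1 letters stood in the Tnfaip6 window 142 to 136 bases before the start and in 6.75% of 32851 mouse windows of this length. RBPJ letters, present in 21.6% of windows, stood in the Tnc window at 250 to 245 bases and in the Cd44 window at 207 to 202 and 179 to 174 bases before the start. They also stood in the Vcan window, not printed here, at 187 to 182 bases. The NF-kB letters, present in 7.25% of windows, stood in the Hyal2 window at 238 to 229 bases. Matches to the 3 motifs did not overlap one another within these windows, and the Has1 window held none of them. A match is a string of letters only, and binding was not measured.

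DNFB raised most of these genes in both genotypes. Past an adjusted p of 0.05 in limma's test over all 14886 probe sets kept, 8 of the 9 genes were higher and 0 lower with DNFB in NICD mice, and 8 were higher and 0 lower in control mice. Over all probe sets, 20% were higher and 18.1% lower in NICD mice, and 23.7% were higher and 23.6% lower in control mice. The median difference of the 9 genes was 1.40 in NICD mice and 1.69 in control mice, beside medians over all probe sets of 0.0067 and -0.0012. Since the genes were gathered with part of these results known, and Has1 passed the filter on dim probe sets only through its DNFB arrays, the counts describe them and support nothing further.

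**Figure D1:**
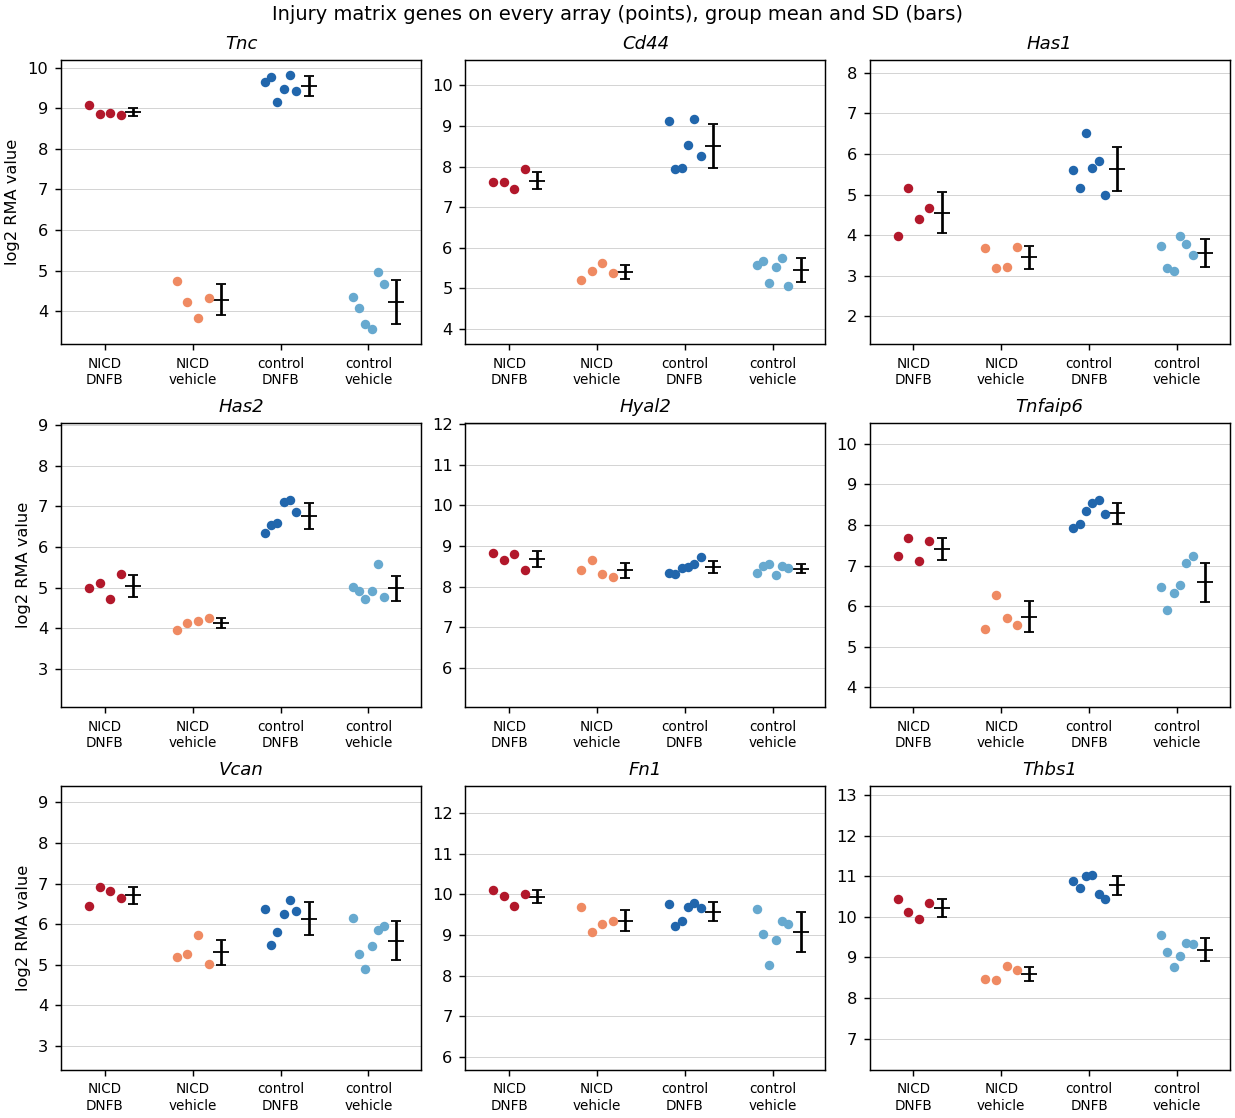
Log2 RMA value of each gene (vertical axes, all spanning the same number of log2 units) on every array (points) in the NICD DNFB, NICD vehicle, control DNFB and control vehicle groups, with the group mean and SD (bars). Tnc sits between 8.83 and 9.81 on all DNFB arrays and between 3.56 and 4.97 on all vehicle arrays, while Hyal2 stays between 8.23 and 8.84 throughout.

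Tnc encodes tenascin C, a matrix glycoprotein that is scarce in resting adult tissue and laid down in wounds. It read 9.07, 8.85, 8.89 and 8.83 in NICD DNFB ears, against 4.74, 4.23, 3.83 and 4.33 in NICD vehicle ears. In control DNFB ears it ran from 9.15 to 9.81 (median 9.56), against 3.56 to 4.97 (median 4.22) in control vehicle ears. No DNFB array came near a vehicle array, and the NICD DNFB arrays varied least among themselves (SD 0.11). The DNFB difference was 4.62 ± 0.25 (SE), or 24.7-fold, in NICD mice and 5.32 ± 0.20, or 40.0-fold, in control mice. On 4 of the 6 control vehicle arrays Tnc exceeded the array's median, so it was close to the dim end there and the control fold may be understated.

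Cd44 encodes the main cell surface receptor for hyaluronan. Its values were 7.61, 7.62, 7.44 and 7.95 in NICD DNFB ears, against 5.20, 5.43, 5.63 and 5.37 in NICD vehicle ears. Control DNFB ears gave 7.95 to 9.18 (median 8.40), against 5.07 to 5.75 (median 5.56) in control vehicle ears. The DNFB and vehicle arrays did not overlap in either genotype. The control DNFB arrays were the most spread of the 4 groups (SD 0.55), with replicates 1 and 5 above 9. The DNFB difference was 2.25 ± 0.24, or 4.75-fold, in NICD mice and 3.05 ± 0.20, or 8.27-fold, in control mice.

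Has1 and Has2, which encode enzymes that extrude hyaluronan, both rose with DNFB. Has2, the synthase needed for heart development in the mouse, read 4.98, 5.12, 4.72 and 5.35 in NICD DNFB ears, against 3.96, 4.13, 4.18 and 4.25 in NICD vehicle ears. In control ears Has2 ran from 6.34 to 7.16 (median 6.73) with DNFB, against 4.73 to 5.58 (median 4.92) with vehicle. The groups of a genotype did not overlap, and the NICD DNFB arrays lay within the range of values seen in control vehicle ears or just below it, with the lowest at 4.72. With each array's median subtracted, those groups still overlapped, at 1.18 to 1.78 in NICD DNFB ears and 0.86 to 1.66 in control vehicle ears. The rise was 0.91 ± 0.19 in NICD mice (limma, adjusted p 0.000731) and 1.78 ± 0.16 in control mice (limma, adjusted p 1.39e-08).

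Has1 encodes another hyaluronan synthase. It read 3.99, 5.17, 4.39 and 4.68 in NICD DNFB ears, against 3.68, 3.20, 3.22 and 3.70 in NICD vehicle ears. Control ears gave 4.99 to 6.52 (median 5.62) with DNFB, against 3.11 to 3.98 (median 3.62) with vehicle. The DNFB difference was 1.11 ± 0.28 in NICD mice and 2.07 ± 0.23 in control mice, with no overlap in either genotype. Has1 exceeded the array's median on 2 of 4 NICD vehicle and 1 of 6 control vehicle arrays. It therefore passed the filter only through its DNFB arrays, which favours a DNFB difference without forcing one. For that reason no p-value is given for its DNFB differences, which may be understated.

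Hyal2 encodes a hyaluronidase anchored at the cell surface that cuts long hyaluronan chains. It read 8.84, 8.66, 8.81 and 8.41 in NICD DNFB ears, against 8.41, 8.64, 8.31 and 8.23 in NICD vehicle ears. In control ears it ran from 8.31 to 8.72 (median 8.46) with DNFB, against 8.29 to 8.56 (median 8.48) with vehicle. The DNFB and vehicle arrays overlapped in both genotypes. The difference was 0.28 in NICD mice (95% interval 0.03 to 0.54; limma, adjusted p 0.077) and 0.03 in control mice (interval -0.17 to 0.24; limma, adjusted p 0.809). The NICD difference passed the threshold without NICD vehicle replicate 2 or without NICD DNFB replicate 4, with adjusted p down to 0.0245. It also passed with trended and robust variances and with arrays centred on the median of the probe sets kept (limma, adjusted p down to 0.0456). The NICD result for Hyal2 was thus near the threshold.

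Tnfaip6 encodes TSG-6, the secreted hyaluronan-binding protein that links hyaluronan chains. Its values were 7.24, 7.68, 7.12 and 7.60 in NICD DNFB ears, against 5.43, 6.29, 5.72 and 5.54 in NICD vehicle ears. Control DNFB ears gave 7.94 to 8.61 (median 8.30), against 5.91 to 7.24 (median 6.50) in control vehicle ears. Both genotypes showed full separation of DNFB from vehicle arrays. The rises had nearly the same size, at 1.67 ± 0.25 in NICD mice (limma, adjusted p 1.75e-05) and 1.69 ± 0.20 in control mice (limma, adjusted p 7.02e-07).

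Thbs1 encodes thrombospondin 1, a matricellular protein that restrains vessel growth and can release active TGF-beta. It read 10.43, 10.12, 9.95 and 10.34 in NICD DNFB ears, against 8.46, 8.44, 8.78 and 8.68 in NICD vehicle ears. In control ears it ran from 10.45 to 11.02 (median 10.80) with DNFB, against 8.75 to 9.56 (median 9.22) with vehicle. As for Tnfaip6, every DNFB array lay above every vehicle array of its genotype. The rise was 1.62 ± 0.17 in NICD mice (limma, adjusted p 2.42e-07) and 1.58 ± 0.14 in control mice (limma, adjusted p 1.01e-08).

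Vcan encodes versican, a large proteoglycan that binds hyaluronan. Its values were 6.44, 6.93, 6.81 and 6.66 in NICD DNFB ears, against 5.19, 5.28, 5.75 and 5.02 in NICD vehicle ears. Control DNFB ears gave 5.48 to 6.60 (median 6.29), against 4.91 to 6.15 (median 5.66) in control vehicle ears, and only the control groups overlapped. The rise was 1.40 ± 0.26 in NICD mice (limma, adjusted p 0.000189) and 0.54 ± 0.21 in control mice (limma, adjusted p 0.0395). The control call was lost when any 1 of control DNFB replicates 1, 4, 5 and 6 or control vehicle replicates 2, 3 and 4 was left out, with adjusted p up to 0.109 and differences of 0.40 to 0.67 over all such fits.

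Fn1 encodes fibronectin, the glycoprotein on which cells assemble provisional matrix. It read 10.11, 9.95, 9.71 and 10.02 in NICD DNFB ears, against 9.70, 9.06, 9.28 and 9.36 in NICD vehicle ears. In control ears it ran from 9.23 to 9.80 (median 9.67) with DNFB, against 8.25 to 9.65 (median 9.15) with vehicle. The groups touched closely in NICD ears without overlapping and overlapped in control ears. The rise was 0.60 ± 0.22 in NICD mice (limma, adjusted p 0.0382) and 0.50 ± 0.18 in control mice (limma, adjusted p 0.0276). These were marginal calls. The NICD one was lost without any 1 of NICD DNFB replicates 1, 2 and 4 or NICD vehicle replicates 2, 3 and 4 (adjusted p up to 0.112), and the control one without any 1 of control DNFB replicates 1, 4 and 5 or control vehicle replicates 3 and 4 (adjusted p up to 0.0725).

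**Figure D2:**
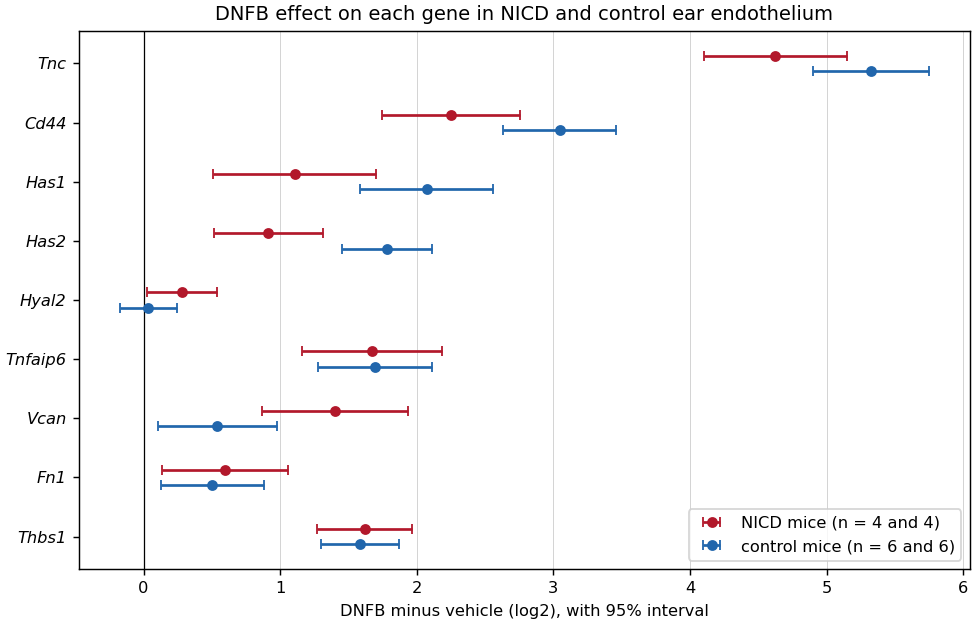
DNFB minus vehicle (horizontal axis, log2) for each gene in NICD mice (n = 4 and 4) and control mice (n = 6 and 6), with points for the estimate and bars for the 95% interval. The interval of Hyal2 in control mice includes 0, and the estimates for Tnc are 4.62 in NICD mice and 5.32 in control mice.

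Whether the DNFB response differed between genotypes was asked with the difference of the DNFB effects, NICD minus control. Of the 9 genes, 0 passed in limma's test (adjusted p 0.195 to 0.987), and 5 had an unadjusted p under 0.05; of all probe sets 0.0134% passed and 1580 had such a p. The 5 were Has2 (-0.87 ± 0.25), Has1 (-0.97 ± 0.37), Cd44 (-0.80 ± 0.31), Tnc (-0.70 ± 0.32) and Vcan (0.86 ± 0.33). Vcan was the gene of these whose DNFB difference was larger in NICD mice, and that of the other 4 was larger in control mice. Tnc and Cd44 were chosen with their DNFB differences known, and Has1 was kept only through its DNFB arrays. This contrast is built from those differences, so for Tnc, Cd44 and Has1 an unadjusted p under 0.05 is a description only. For Tnfaip6 the difference was -0.02 (95% interval -0.69 to 0.64) and for Thbs1 0.04 (interval -0.41 to 0.49), and neither interval shows that the responses were alike. Fn1 gave 0.10 (interval -0.50 to 0.69) and Hyal2 0.25 (interval -0.08 to 0.58).

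In DNFB ears, the hyaluronan synthase genes Has1 and Has2 were lower in NICD mice than in control mice on both scales of the arrays. As deposited, 0 of the 9 genes were higher and 6 lower in NICD mice, beside 5.45% of all probe sets higher and 35.1% lower. With centred arrays 3 were higher and 2 lower, beside 20.7% higher and 8.12% lower. The median difference of the 9 genes was -0.64 (centred -0.27), beside -0.27 (centred 0.10) over all probe sets. Most of the calls on these genes thus turned on the scale, and only those of Has1 and Has2 stood on both.

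Has2 averaged 5.04 ± 0.26 in NICD DNFB ears and 6.77 ± 0.33 in control DNFB ears (SD, n = 4 and 6), with every NICD array below every control array on both scales. Its difference was -1.73 ± 0.18 (limma, adjusted p 1.91e-06), and -1.36 with centred arrays (adjusted p 2.09e-05). Has1 averaged 4.56 ± 0.50 in NICD DNFB ears and 5.62 ± 0.54 in control DNFB ears, and these groups overlapped. The Has1 difference was -1.07 ± 0.26 (limma, adjusted p 0.00334), and -0.69 with centred arrays (adjusted p 0.0447). With quantile or cyclic loess scaling of the arrays the Has1 call was lost (adjusted p up to 0.0909) and the Has2 call stood.

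Another 4 genes were lower in NICD DNFB ears on the deposited scale and did not pass on the centred one. Cd44 averaged 7.66 ± 0.21 in NICD DNFB ears and 8.50 ± 0.55 in control DNFB ears, a difference of -0.85 ± 0.22 (limma, adjusted p 0.00544) that was -0.47 with centred arrays (adjusted p 0.111). Tnfaip6 averaged 7.41 ± 0.27 and 8.28 ± 0.27 in the NICD and control DNFB groups, a difference of -0.87 ± 0.22 (limma, adjusted p 0.00487) that was -0.50 centred (adjusted p 0.107). For Thbs1 the difference was -0.56 ± 0.15 (limma, adjusted p 0.00681) and -0.19 centred (adjusted p 0.336). The Tnc difference of -0.64 ± 0.23 (limma, adjusted p 0.0318; centred -0.27, adjusted p 0.411) was also lost as deposited without any 1 of NICD DNFB replicates 2, 3 and 4 or control DNFB replicates 1, 2 and 5, with adjusted p up to 0.069. As deposited, Tnc, Tnfaip6 and Thbs1 did not overlap between genotypes and Cd44 did. With centred arrays all 4 overlapped. The share of all probe sets without overlap was not counted, so the separation on the deposited scale is a description only.

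The remaining genes leaned the other way. Vcan averaged 6.71 ± 0.21 in NICD DNFB ears and 6.14 ± 0.41 in control DNFB ears, a difference of 0.57 ± 0.23 that missed the threshold as deposited (limma, adjusted p 0.0564) and passed with centred arrays (0.94, adjusted p 0.00468). It also passed as deposited without control DNFB replicate 5 or without control vehicle replicate 1 or 3, with adjusted p down to 0.0332. Fn1 gave 0.37 ± 0.20 (limma, adjusted p 0.146; centred 0.74, adjusted p 0.00828) and Hyal2 0.20 ± 0.11 (adjusted p 0.15; centred 0.58, adjusted p 0.00179). These 3 genes were the ones above the centred threshold, where 20.7% of all probe sets were.

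**Figure D3:**
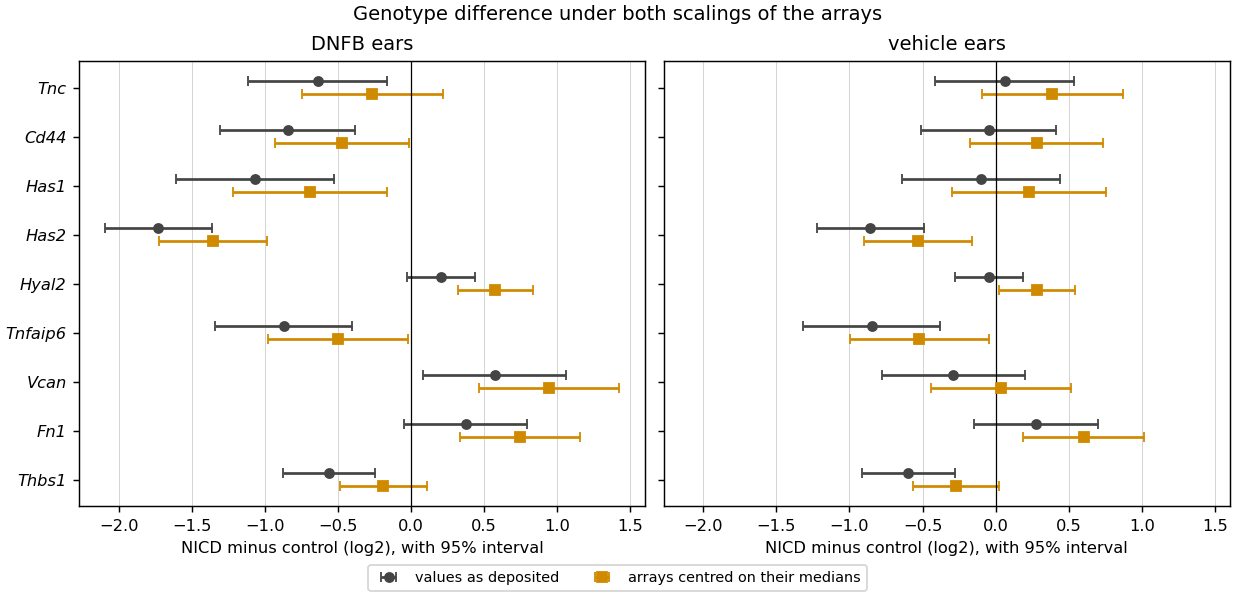
NICD minus control (horizontal axes, log2) in DNFB ears and vehicle ears for each gene, as deposited (circles) and with each array centred on its median (squares), with bars for the 95% interval. In both kinds of ear the Has2 intervals lie below 0 on both scales, and centring moves every estimate to the right.

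In vehicle ears 0 of the 9 genes were higher and 3 lower in NICD mice as deposited, beside 2.88% of all probe sets higher and 33% lower. With centred arrays 1 was higher and 1 lower, beside 11.9% higher and 6.54% lower. Has2 was the gene lower on both scales. It averaged 4.13 ± 0.13 in NICD vehicle ears and 4.99 ± 0.31 in control vehicle ears, without overlap, and the difference of -0.86 ± 0.18 (limma, adjusted p 0.00111) was -0.53 with centred arrays (adjusted p 0.0415); with quantile scaling it was lost (adjusted p 0.0572). Tnfaip6, at -0.85 ± 0.22 (limma, adjusted p 0.0068; centred -0.52, adjusted p 0.119), and Thbs1, at -0.60 ± 0.15 (adjusted p 0.0053; centred -0.27, adjusted p 0.197), passed as deposited only. Fn1, at 0.28 ± 0.20 (adjusted p 0.293), passed with centred arrays only (0.60, adjusted p 0.0396). Tnc (0.06 ± 0.23; centred 0.39) and Cd44 (-0.05 ± 0.22; centred 0.28) passed on neither scale. The median difference of the 9 genes was -0.10 (centred 0.23), beside -0.28 (centred 0.05) over all probe sets. The genotype comparisons and the DNFB comparisons share arrays, so the values of a gene in them are not independent.

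Taking the groups in order of level on the deposited scale, the DNFB groups were the top pair for Tnc, Cd44, Tnfaip6 and Thbs1, with control above NICD. For Tnc and Cd44 the vehicle groups were neighbours that did not differ beyond their spread. For Has1 the order was control DNFB, NICD DNFB and then the vehicle groups, with an overlap between the DNFB groups and between the vehicle groups. For Has2 it was control DNFB, then NICD DNFB (mean 5.04) and control vehicle (mean 4.99) within each other's spread, then NICD vehicle. Vcan and Fn1 were highest in NICD DNFB ears, with an overlap between that group and control DNFB ears for both. The Hyal2 groups all overlapped. With centred arrays, Vcan and Fn1 did not overlap between NICD DNFB and control DNFB ears, and Hyal2 ran from 4.84 to 5.31 in NICD DNFB ears, above the 4.35 to 4.68 of control vehicle ears.

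The other genes of hyaluronan synthesis, breakdown and transport did not move one way with DNFB. Of 11 such genes kept, 4 rose and 3 fell in NICD mice, and 4 rose and 4 fell in control mice. Their median difference was -0.04 in NICD mice and -0.28 in control mice. Over all probe sets 20% rose and 18.1% fell in NICD mice, and 23.7% rose and 23.6% fell in control mice. The enzymes at the entry to the hexosamine pathway, which supplies a sugar precursor of hyaluronan, rose in both, with Gfpt2 up by 0.96 ± 0.25 in NICD mice and 1.12 ± 0.21 in control mice and Gfpt1 by 0.81 ± 0.17 and 1.06 ± 0.14. Ugdh, which makes the other precursor, rose by 0.50 ± 0.11 in NICD mice and 0.83 ± 0.09 in control mice. The transporter gene Abcc5 decreased by 1.30 ± 0.15 in NICD mice and by 1.23 ± 0.12 in control mice, and Has3, the third synthase gene, fell by 0.66 ± 0.20 in NICD mice. In DNFB ears Gfpt2 was lower in NICD mice by the same test on both scales (-1.52 ± 0.23, centred -1.15). So was Gfpt1 (-0.86 ± 0.16, centred -0.49), while Ugp2 of the same list was higher on both (0.24 ± 0.09, centred 0.61). Of the 11 genes, 1 was higher and 4 lower there as deposited, and 3 higher and 2 lower centred. The shares of all probe sets were 5.45% and 35.1% as deposited, and 20.7% and 8.12% centred. In vehicle ears Gfpt2 was again lower (-1.37 ± 0.23, centred -1.04).

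Among 15 kept genes for hyaluronan-binding proteins and receptors, 3 rose and 3 fell with DNFB in NICD mice. The counts were also 3 and 3 in control mice. These were near the shares of all probe sets, 20% raised and 18.1% lowered in NICD mice, and 23.7% and 23.6% in control mice. Itih5, which encodes a heavy chain of the inter-alpha-inhibitor family, fell by 2.70 ± 0.17 in NICD mice and by 2.18 ± 0.14 in control mice. Ptx3, a secreted pentraxin that helps organise hyaluronan matrix in the mouse ovary, rose by 0.93 ± 0.29 in NICD mice and 1.39 ± 0.23 in control mice. Lyve1, the hyaluronan receptor of lymphatic vessels, did not pass for DNFB but was higher in NICD mice in DNFB ears (1.01 ± 0.24; centred 1.38) and in vehicle ears (1.35 ± 0.24; centred 1.68). Of 6 lymphatic endothelial markers, Lyve1 included, 4 were higher in NICD DNFB ears and 5 in NICD vehicle ears as deposited. Over all probe sets 5.45% were higher in NICD DNFB ears and 2.88% in NICD vehicle ears. The part of a changed share of lymphatic cells in these marker values was not tested. Fewer cells of a type and less RNA per cell cannot be told apart in these bulk samples.

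The other matricellular genes gave 3 rises and 2 falls of 16 kept with DNFB in NICD mice, and 4 and 2 in control mice. The shares of all probe sets were 20% and 18.1% in NICD mice and 23.7% and 23.6% in control mice. Thbs4, a thrombospondin of tendon and injured tissue, rose by 2.48 ± 0.50 in NICD mice and 2.78 ± 0.41 in control mice, and Ccn2, a growth-factor-binding matricellular protein, by 1.28 ± 0.17 and 1.29 ± 0.14. Sparcl1, a relative of the collagen-binding protein SPARC, fell by 1.53 ± 0.15 in NICD mice and by 1.04 ± 0.12 in control mice. No other tenascin gene was among the genes that passed for DNFB.

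Receptors for these matrix proteins moved in both directions. There were 5 rises and 3 falls of 13 kept in NICD mice and 6 and 4 in control mice. The shares of all probe sets were 20% and 18.1% in NICD mice and 23.7% and 23.6% in control mice. Itgb3 and Itgav, which pair as a receptor for fibronectin and osteopontin, rose by 1.73 ± 0.23 and 0.86 ± 0.18 in NICD mice and by 1.45 ± 0.19 and 1.36 ± 0.15 in control mice. Sdc4, a fibronectin co-receptor, rose by 1.50 ± 0.21 in NICD mice and 1.64 ± 0.17 in control mice. Cd36, a thrombospondin receptor of capillary endothelium, fell by 2.25 ± 0.18 in NICD mice and by 2.23 ± 0.15 in control mice.

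Genes for versican-cleaving proteases and matrix assembly gave 6 rises and 3 falls of 12 kept in each genotype. The shares of all probe sets were 20% and 18.1% in NICD mice and 23.7% and 23.6% in control mice. Adamts9, a protease that can cleave versican, rose by 2.11 ± 0.15 in NICD mice and 1.55 ± 0.12 in control mice, and Adamts5 rose by 1.43 ± 0.32 and 1.81 ± 0.26. Loxl1, an elastin cross-linking enzyme, rose by 1.98 ± 0.16 in NICD mice and 2.14 ± 0.13 in control mice, while Fbln2, a fibronectin-binding fibulin, fell by 1.19 ± 0.18 and by 1.67 ± 0.15. In vehicle ears 0 of the 12 genes were higher and 6 lower in NICD mice as deposited, beside 2.88% and 33% of all probe sets, and 1 (Loxl1) was higher and 3 lower with centred arrays, beside 11.9% and 6.54%. The 3 lower on both scales in vehicle ears were genes for versican-cleaving proteases. They were Adamts4 (-1.16 ± 0.15, centred -0.83), Adamts9 (-1.0 ± 0.14, centred -0.67) and Adamts1 (-0.94 ± 0.14, centred -0.61). In DNFB ears 2 of the 12 were higher and 6 lower in NICD mice as deposited, and 3 higher and 0 lower centred. The shares of all probe sets there were 5.45% and 35.1% as deposited, and 20.7% and 8.12% centred. For the difference of the DNFB effects, 0 of 67 genes in the 5 lists passed in limma's test and 22 had an unadjusted p under 0.05. Among all 14886 probe sets kept, 2 passed and 1580 had such a p. The lists were chosen with earlier results of these data known, so their counts are a description only. All falls and rises named are limma calls at the same threshold.

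**Figure D4:**
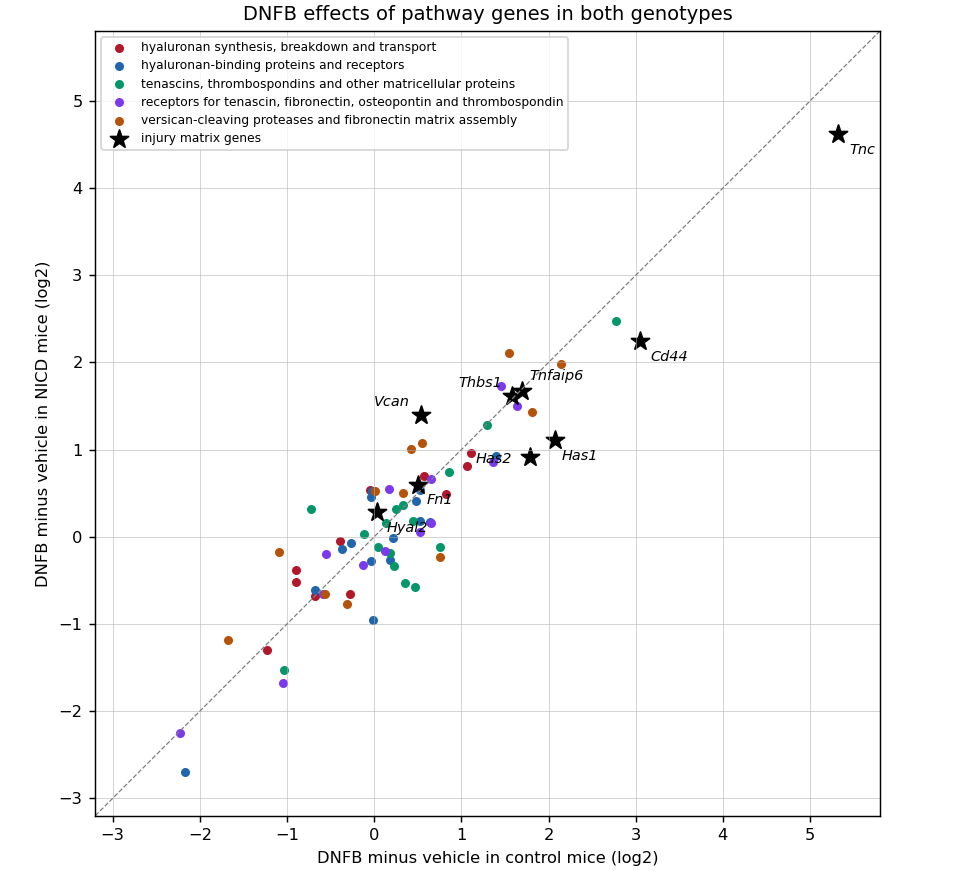
DNFB minus vehicle in NICD mice (vertical axis, log2) against the same in control mice (horizontal axis, log2) for the genes of 5 related lists (coloured points) and the injury matrix genes (stars), with the line of equal effects. Tnc lies farthest out at 5.32 and 4.62, and Vcan is the star farthest above the line.

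Transcripts of other cell types moved with DNFB in the same sorts. Their counts stand beside 20% of all probe sets raised and 18.1% lowered in NICD mice, and 23.7% and 23.6% in control mice. The mean of 11 keratinocyte markers was 7.24 to 7.84 in NICD DNFB ears and 6.16 to 6.92 in NICD vehicle ears, and 6.85 to 8.75 in control DNFB ears and 5.74 to 6.93 in control vehicle ears. Of these 3 rose and 1 fell in NICD mice (median difference -0.21), and 4 rose and 2 fell in control mice (median difference 0.44). The most raised, the stress keratin Krt16, rose by 5.10 ± 0.52 in NICD mice and 5.93 ± 0.42 in control mice. Neutrophil markers rose in both, 7 of 8 kept each. Their mean was 5.50 to 5.81 in NICD DNFB against 3.55 to 3.80 in NICD vehicle ears. It was 5.20 to 6.46 in control DNFB against 3.58 to 3.84 in control vehicle ears. The vehicle means lay near or below the array medians, which were 3.52 to 3.62 on NICD and 3.87 to 3.98 on control arrays. Some of these markers may therefore have passed the filter only through their DNFB arrays, so the neutrophil counts are a description only. Of 12 annotated neutrophil markers, the granule genes Camp and Ltf were the 2 that never exceeded an array's median. The sort gate leaves out CD45+ cells, and the source of these transcripts was not tested. Macrophage markers rose in 4 of 9 kept in NICD mice and 5 in control mice, and platelet markers in 5 and 7 of 7. Those counts are likewise a description only. Pericyte and smooth muscle markers fell, 8 of 12 in NICD mice and 10 in control mice, as did 9 and 13 of the 15 pan-endothelial markers, with 1 endothelial marker higher in NICD mice.

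Fibroblast markers matter here because fibroblasts make much of this matrix in skin. Their mean was 5.69 to 6.58 in NICD DNFB ears and 5.81 to 6.25 in NICD vehicle ears, and 6.47 to 7.41 in control DNFB ears and 5.98 to 6.55 in control vehicle ears. Of 11 markers, 3 rose and 2 fell with DNFB in NICD mice, and 4 rose and 1 fell in control mice. The shares of all probe sets are those given for the other cell types. Lum rose by 1.69 ± 0.32 in NICD mice and 2.09 ± 0.26 in control mice. In DNFB ears 4 of the 11 were lower in NICD mice as deposited and 1 with centred arrays, Pdgfra (-1.61 ± 0.27, centred -1.24). Over all probe sets 35.1% were lower there as deposited and 8.12% centred, so the fibroblast counts were near those shares. Of 7 platelet genes, 5 were lower there as deposited and 2 centred, beside the same shares. Control DNFB replicate 5 was the highest array of its group for the fibroblast, keratinocyte, macrophage and neutrophil lists, and also for Tnc, Cd44, Has2, Tnfaip6, Vcan and Fn1. Without it, 6 of the 9 genes were higher with DNFB in control mice, Vcan and Fn1 being the ones lost, and 5 were lower in NICD DNFB ears than in control DNFB ears, Tnc being the one lost. The same calls were lost without control DNFB replicate 1. That array was the lowest of its group for the macrophage list (4.78) and came next to replicate 5 for the keratinocyte (7.90) and neutrophil (6.28) lists. The part of other cell types in the levels of the injury matrix genes was not tested.

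**Figure D5:**
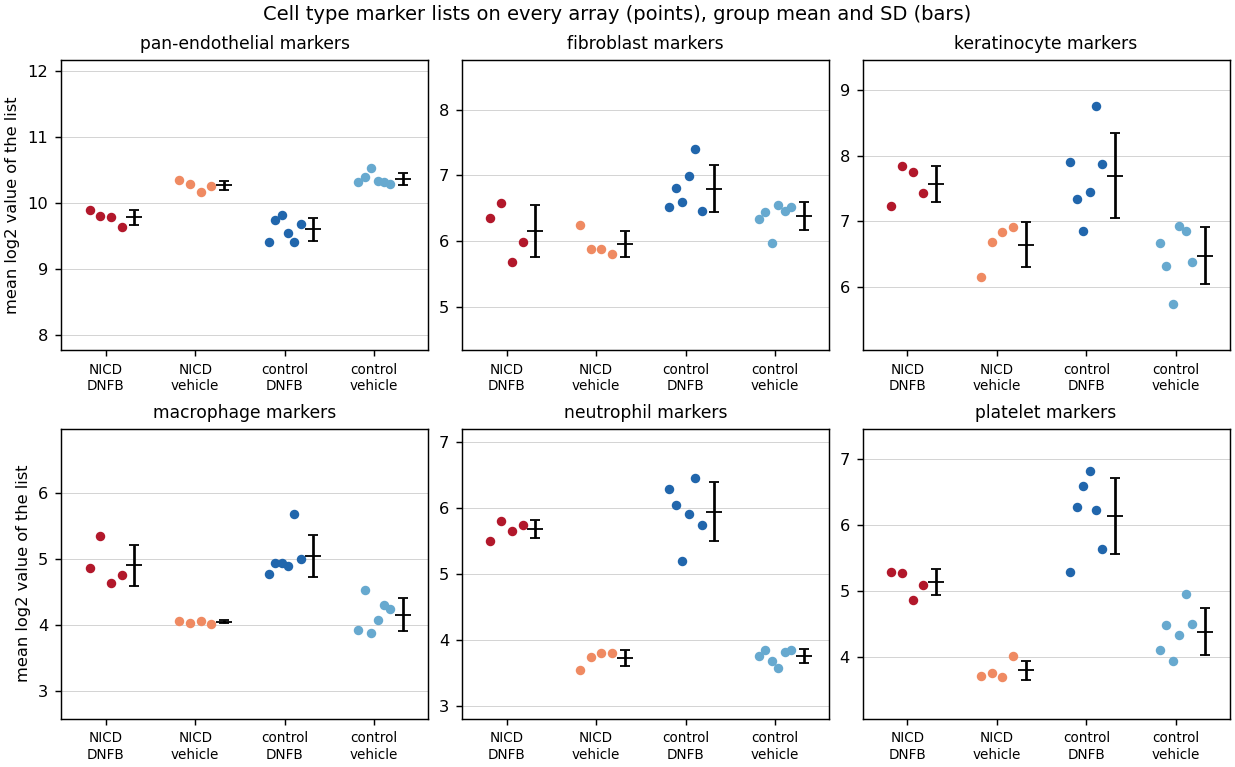
Mean log2 RMA value of 6 marker lists (vertical axes, all spanning the same number of log2 units) on every array (points) in the 4 groups, with the group mean and SD (bars). The neutrophil list is at 5.20 to 6.46 on DNFB arrays and 3.55 to 3.84 on vehicle arrays, and the pan-endothelial list is lower on DNFB arrays.

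The genes whose pattern was most like each of these were found by the root-mean-square difference over the 20 arrays after each gene's own mean was subtracted, among all genes kept. For Tnc they were S100a8 (0.537), Csta3 (0.571) and Slc7a11 (0.594), against a spread of 2.55 for Tnc itself. For Cd44 they were Gsta4 (0.337), Urah (0.378) and Aqp3 (0.397), against its own 1.43. Has2 lay closest to Tmem125 (0.329), Ntrk2 (0.358) and Hk2 (0.375), and Has1 to Crispld2 (0.358), Sh3pxd2b (0.405) and Cstb (0.412). Nop58 was the closest gene to both Tnfaip6 (0.296) and Thbs1 (0.208). Vcan had Irgm1 (0.282), Bak1 (0.330) and Socs1 (0.332) as its closest genes, and Fn1 had Rnf213 (0.250). The closest to Hyal2 was Snx1 (0.121), little nearer than the 0.170 by which Hyal2 itself varied. Likeness here reflects the same 4 groups and arrays for every gene.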

How the data were processed

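The authors deposited log2 values per probe set from RMA in Affymetrix Expression Console, per the submitters' processing notes; versions, options and genome build are not given in the sources used here. Per the labels, amplification (WT Pico kit) started from 1 ng of RNA. Of 41345 probe sets, 23521 carry 1 gene symbol in the array annotation, 1814 several and 16010 none. Second probe sets of Has2 and Hyal2, shared with another symbol, were left out.

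Probe sets with 1 symbol and a value above the array's median on at least 4 of 20 arrays were kept (14886). Group means over all arrays were fitted with lmFit and compared with eBayes (limma 3.58.1, R 4.3.3). P-values were Benjamini-Hochberg adjusted over all probe sets kept, with a threshold of 0.05, and the procedure was tested on simulated data. Errors are SE unless marked SD. The same fit was run on arrays centred on their medians because the medians differed between NICD and control arrays. The lowest value per array also differed, at 1.18 to 1.30 on NICD arrays and 0.412 to 0.590 on control arrays. Centring does not align these lowest values, since NICD arrays had the higher lowest value and the lower median. Arrays of a group correlated at 0.948 to 0.971, and their number limits the precision. Alternatives were other filters, scalings, variance models and array weights, a replicate block, fits on the compared groups and leaving out each array.

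Members and lists were chosen with earlier results of these data known. Genes named besides the members were those of each related list with the largest differences past the threshold (up to 4 a comparison), the leading or most raised markers of a cell type, and the 3 nearest genes by pattern. Xist, Eif2s3y, Notch1, Pdgfra, Ugp2, Camp and Ltf fall outside this rule and were added once their values had been seen. Promoter sequences are from RefSeq, and motifs were searched in Python 3.11.15. Figures were drawn with matplotlib 3.10.9.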

Additional observations from a re-analysis of the deposited data

Results flagged for a closer look

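In the control vehicle group, Has2 read 5.58 on replicate 5, apart from the other 5 arrays at 4.73 to 5.01: the gap to the nearest array was 0.677 of the group's range, above Dixon's critical value for 6 samples. It was the only such value among 36 gene and group combinations examined, and chance gives about 1 in 20. The value brings control vehicle ears closer to control DNFB ears and farther from NICD vehicle ears, and the Has2 calls stood without this array.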

How the results depend on the processing

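For DNFB against vehicle the counts of injury matrix genes higher and lower stayed within 1.5 times of those reported under every alternative run, with 7 to 8 higher in NICD mice and 6 to 8 in control mice over the fits that left out 1 array. The counts for NICD against control in DNFB ears depended on scaling. Reported as 0 higher and 6 lower, they were 3 and 2 with arrays centred on their medians, and also 3 and 2 with arrays centred on the median of the probe sets kept, a setting added after seeing the data. There were 2 higher with quantile scaling, 1 with cyclic loess, 1 with trended and robust variances and 1 with the compared groups alone, and 2 lower where at least a 2-fold difference was also asked. Leaving out 1 array gave 0 to 1 higher (1 without control vehicle replicate 1 or 3 or control DNFB replicate 5) and 5 to 6 lower. In vehicle ears, reported as 0 higher and 3 lower, they were 1 and 1 with either centring, 1 lower with quantile scaling and 0 lower at 2-fold, while leaving out 1 array gave 3 lower throughout. No direction of a called gene reversed, and the cause of these moves was not tested.

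Over all probe sets, NICD against control in DNFB ears gave 811 higher and 5225 lower as reported, 3074 and 1209 with centred arrays, 2455 and 1605 centred on the probe sets kept, 1778 and 1775 with quantile scaling and 1830 and 1703 with cyclic loess. In vehicle ears 428 and 4915 became 1767 and 974, 1677 and 1101, 1020 and 1392, and 1163 and 1159 in the same order, and without the filter the higher counts were 1904 in DNFB and 1396 in vehicle ears. At 2-fold, DNFB gave 828 higher and 791 lower in NICD mice, where 2974 and 2691 were reported, and 829 and 864 in control mice, where 3525 and 3508 were; the genotype comparison gave 63 and 738 in DNFB ears and 54 and 449 in vehicle ears. For the difference of the DNFB effects the reported 1 higher and 1 lower became 23 and 4 with trended and robust variances and 13 and 4 with array weights, 0 and 0 centred on the probe sets kept, and 0 higher without the filter or with quantile or cyclic loess scaling; leaving out 1 array gave 0 to 24 higher and 0 to 6 lower.

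Same-numbered arrays of the DNFB and vehicle groups correlated in their deviations at 0.0515 to 0.227 in NICD mice (2 of 4 over 0.1) and at 0.0418 to 0.269 in control mice (3 of 6 over 0.1), beside medians of -0.052 and -0.033 over arrays of other numbers. Since not every pair was over 0.1, the numbers were not taken to pair the arrays. Every same-numbered pair correlated positively, however, so a pairing by number remains possible, and the main fits do not use one. For NICD against control, the fixed replicate block joined NICD and control arrays of the same number. Such arrays correlated at -0.087 to 0.0888 in DNFB ears and -0.162 to 0.00971 in vehicle ears (0 of 4 over 0.1 in each), so nothing showed them to be paired. With that block 2 genes (Vcan and Fn1) were higher in NICD DNFB ears. As a random block within genotype (consensus correlation 0.0951) the replicate number gave 15 higher and 5 lower probe sets for the difference of the DNFB effects. Neither block changed another count of injury matrix genes. Averaging several probe sets of a gene was not run, since each gene had 1. Besides the arrays named above, the DNFB calls of Fn1 were lost in 5 of 13 other settings in NICD mice and 4 in control mice, and that of Vcan in 4 in control mice. Scanner intensities were not used here, so a bound from background could not be set for dim values.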
